A study of Homo sapiens with 12 samples.

Results

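The genes described here are 10 members of the BCL2 family, which decide whether a cell keeps its mitochondria intact or enters apoptosis. They were taken by gene name from a count table of 64253 genes, and 9 of the 10 had enough reads to be tested, among 19460 tested genes in all. The anti-apoptotic members are BCL2, BCL2L1, MCL1 and BCL2A1, the BH3-only members are BCL2L11, BMF, BBC3 and PMAIP1, and the effectors are BAX and BAK1. RNA was sequenced from JEKO-1, an established human mantle cell lymphoma line (a B cell cancer), after 48 h of treatment, in 12 libraries that make up 4 groups of 3. The groups were KPT-330 with choline salicylate (KPT-330+CS), KPT-330 alone, choline salicylate alone (CS), and DMSO. KPT-330 (selinexor) inhibits XPO1, the receptor that carries many proteins out of the nucleus, choline salicylate is a salicylate salt, and DMSO was the solvent of KPT-330. The study set each treatment beside DMSO, and CS beside KPT-330. The labels give no dose for a particular library, and they do not say that libraries of 1 group were grown apart. The p-values therefore measure only the variation among these libraries, and it may be technical. All libraries come from 1 cell line, so the values describe that line alone.

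Members of the BCL2 family act on the outer membrane of mitochondria. The effectors BAX and BAK1 can open pores there that release cytochrome c, and the anti-apoptotic proteins BCL2, BCL-XL (from BCL2L1), MCL1 and BFL-1 (from BCL2A1) bind and hold them. BH3-only proteins carry stress signals: BIM (from BCL2L11), BMF, PUMA (from BBC3) and NOXA (from PMAIP1) occupy the groove of the anti-apoptotic proteins or act on the effectors. Mantle cell lymphoma cells often hold high BCL2, and drugs that imitate a BH3-only protein are aimed at BCL2 and MCL1.

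Total counts lay between 35325563 and 59490178 per library. Levels are given as CPM, the reads of a gene scaled to a common library size. A difference is a log2 fold change from edgeR with its SE, and it was called where the adjusted p (Benjamini-Hochberg, over all tested genes) did not exceed 0.05. In the checks of cell identity, all 8 B cell and mantle cell lymphoma markers had over 100 reads in a library and summed to between 2968 and 3128 CPM in KPT-330+CS, 2974 and 3017 CPM in KPT-330, 2472 and 2788 CPM in CS, and 2166 and 2460 CPM in DMSO. Of other cell types, 4 T cell markers summed to 0.32 to 0.604 CPM (rounded from 0.6035) in KPT-330+CS, 1.21 to 1.66 CPM in KPT-330, 0.184 to 0.275 CPM in CS and 0.342 to 0.655 CPM in DMSO. The 4 epithelial markers summed to 1.71 to 2.35 CPM in KPT-330+CS, 2.40 to 3.34 CPM in KPT-330, 0.756 to 0.874 CPM in CS and 0.612 (rounded from 0.6115) to 0.965 CPM in DMSO. Myeloid markers stayed at or below 4.13 CPM and erythroid ones at or below 0.0604 CPM (rounded from 0.06035) in every library, and HBB was at 0. The T cell and epithelial sums were thus small but highest in KPT-330, and their part in the results was not tested. Libraries of 1 group differed in how their counts depended on the GC content of genes. The slope in log2 units per 10 GC points was 0.135, 0.0269 and -0.160 in KPT-330+CS replicates 1 to 3, 0.215, 0.206 and 0.242 in KPT-330, -0.243 (rounded from -0.2425), -0.108 and 0.0636 in CS, and 0.0929, -0.138 and -0.334 in DMSO. The KPT-330 libraries thus had the highest slopes and the least spread. Mitochondrial ribosomal RNA took 2.52% to 2.75% of counts (rounded from 2.745) in KPT-330+CS and 1.055% to 1.46% in the other libraries. XPO1 had 1532 CPM in KPT-330+CS, 1575 CPM in KPT-330, 889 CPM in CS and 845 CPM in DMSO.

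Under KPT-330 the anti-apoptotic genes BCL2A1, MCL1 and BCL2L1 fell while BCL2 rose, the BH3-only genes BBC3 and BMF rose and PMAIP1 fell. With CS added, BCL2, BMF and PMAIP1 were higher than with KPT-330 alone, and BCL2A1 and MCL1 were again below DMSO. CS alone moved 1 member past the threshold, BCL2, and 4 after a correction for GC content that is described with the effectors. Of the 9 tested members, KPT-330+CS against DMSO called 3 higher and 4 lower, where 55.5% of all tested genes were called (29.3% higher and 26.2% lower). KPT-330 against DMSO also called 3 higher and 4 lower, and 48.5% of all tested genes were called (24.7% higher and 23.8% lower). For CS against DMSO 1 member was called, and it was higher, with 8.88% of genes called (3.76% higher and 5.13% lower). For KPT-330+CS against KPT-330 3 were higher and 1 lower, with 37.6% of genes called (19.7% higher and 17.9% lower). KPT-330+CS against CS called 3 higher and 2 lower, with 47.8% of genes called (26.1% higher and 21.7% lower). CS against KPT-330 called 3 higher and 2 lower, with 42.8% of genes called (20.2% higher and 22.6% lower). A call is thus common among all genes in every comparison but CS against DMSO, and little can be read from the number of members called. The study also asked for an absolute log2 fold change over 2. Under that rule BCL2A1, BMF and BBC3 passed for KPT-330+CS against DMSO (4.36% of all tested genes did) and for KPT-330+CS against CS (3.0%), BCL2A1 and BBC3 for KPT-330 against DMSO (3.02%), and BCL2A1 for CS against KPT-330 (2.67%). With the GC correction BBC3 in KPT-330 against DMSO was below that size (1.76). The largest member changes in the remaining comparisons were below that size: 0.61 for BCL2 in CS against DMSO (0.144% of genes passed), 1.37 for BMF in KPT-330+CS against KPT-330 (0.853%) and 1.16 for BMF in the interaction (0.761%).

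**Figure D1:**
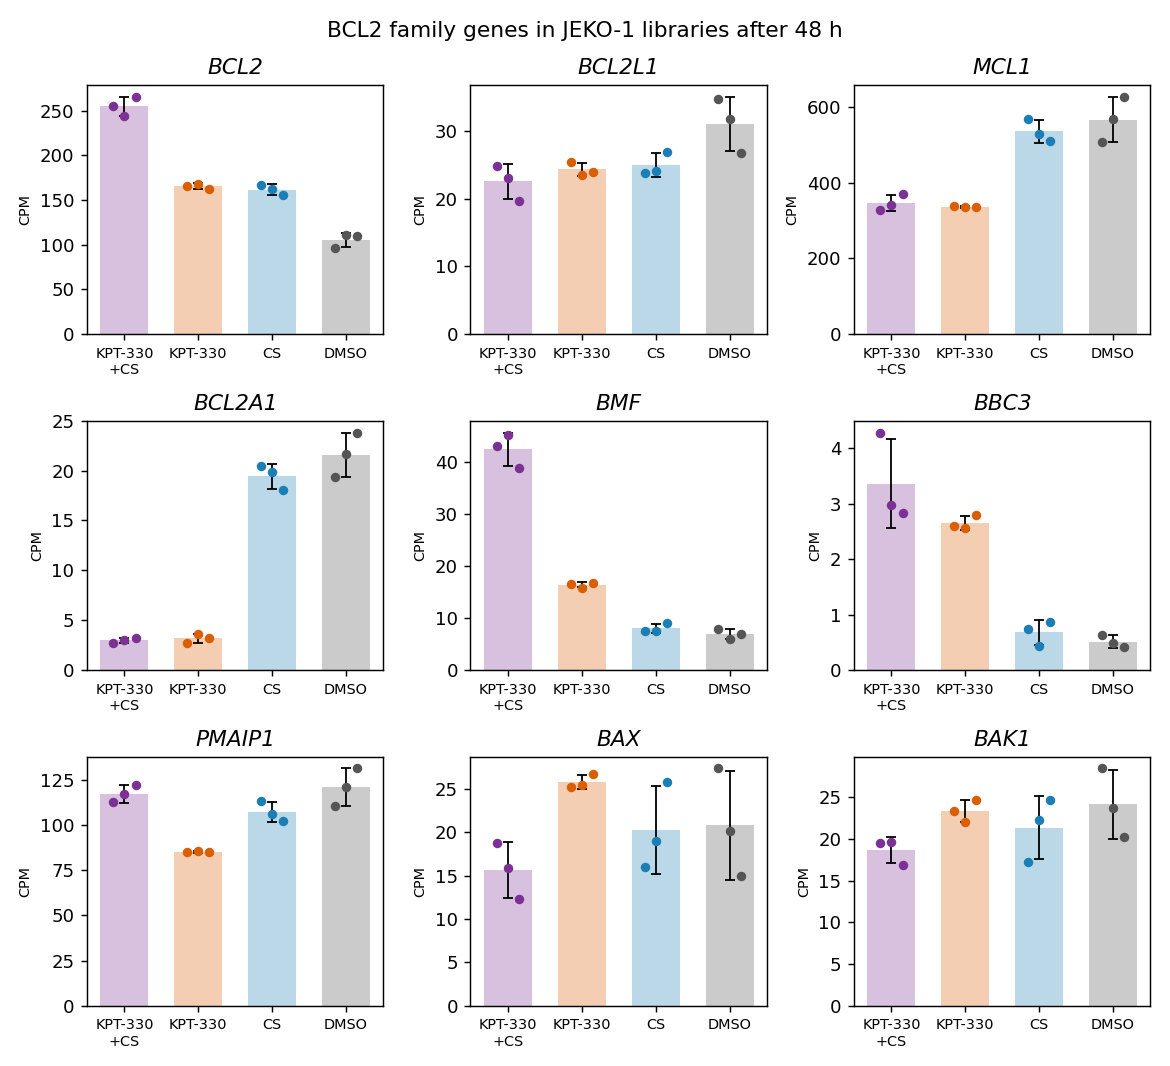
Level of the 9 BCL2 family genes with reads, in CPM on linear axes from 0; bars are the means of 3 libraries, error bars the SD, and points the libraries of KPT-330+CS, KPT-330, CS and DMSO from left to right, in the order of replicates 1 to 3. BCL2A1 is near 3 CPM in every library with KPT-330, BMF is highest in KPT-330+CS (38.9 to 45.2 CPM), and the points of BAX are spread widely in KPT-330+CS, CS and DMSO.

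BCL2A1 (ENSG00000140379, chromosome 15, 79960889 to 79971446 of hg38), which encodes BFL-1, a survival factor that is known as a target of NF-kappaB in B cells, was the most strongly lowered member. It had 2.70, 2.96 and 3.23 CPM in the KPT-330+CS libraries and 2.68, 3.565 and 3.24 CPM in the KPT-330 libraries. It had 20.5, 19.8 and 18.02 CPM in the CS libraries, against 19.3, 21.7 and 23.8 CPM in the DMSO libraries. All 6 libraries with KPT-330 lay far below all 6 without it, and within each set the groups overlapped. The log2 fold change was -2.86 ± 0.12 for KPT-330+CS against DMSO (adjusted p = 8.66e-10), -2.77 ± 0.12 for KPT-330 against DMSO (adjusted p = 2.41e-09), and -0.15 ± 0.11 for CS against DMSO (adjusted p = 0.466). Adding CS to KPT-330 left a difference of -0.09 ± 0.13 (adjusted p = 0.598 by edgeR).

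MCL1 (ENSG00000143384, chromosome 1, 150574551 to 150579738), which encodes a short-lived anti-apoptotic protein on which many B cell cancers depend, followed the same division at a smaller size. It had 328, 342 and 370.4 CPM in KPT-330+CS, 339, 336 and 335 CPM in KPT-330, 568, 529 and 509.8 CPM in CS, and 507, 567 and 627 CPM in DMSO. The libraries with KPT-330 did not overlap those without it, while KPT-330+CS overlapped KPT-330 and CS overlapped DMSO. MCL1 fell by 0.71 ± 0.07 on the log2 scale in KPT-330+CS (adjusted p = 3.08e-06) and by 0.75 ± 0.07 in KPT-330 (adjusted p = 3.67e-06), each against DMSO. The value for CS against DMSO was -0.08 ± 0.07 (adjusted p = 0.581), and that for CS against KPT-330 was 0.67 ± 0.07 (adjusted p = 1.32e-05).

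BCL2 (ENSG00000171791, chromosome 18, 63123346 to 63320128), which encodes the founding member and the target of venetoclax, moved the other way and was called for CS alone as well. It had 255, 244 and 265 CPM in KPT-330+CS, 166, 168 and 162 CPM in KPT-330, 167, 162 and 155 CPM in CS, and 96.2, 110.5 and 109.8 CPM in DMSO. Each drug alone placed all its libraries above DMSO, the 2 single drugs overlapped, and both drugs together lay above every other library. BCL2 rose by 1.27 ± 0.06 on the log2 scale in KPT-330+CS (adjusted p = 1.97e-09), 0.65 ± 0.06 in KPT-330 (adjusted p = 1.92e-06) and 0.61 ± 0.06 in CS (adjusted p = 7.18e-05), each against DMSO. The sum of the changes under the single drugs, 1.26, was close to the change under both, and the interaction was 0.01 ± 0.08 (adjusted p = 0.961). Against KPT-330 alone, KPT-330+CS was higher by 0.62 ± 0.06 (adjusted p = 6.41e-06), and CS against KPT-330 gave -0.04 ± 0.06 (adjusted p = 0.663).

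BCL2L1 (ENSG00000171552, chromosome 20, 31664452 to 31723989) encodes BCL-XL and a shorter pro-apoptotic form that these gene counts do not separate. It was called lower in both groups with KPT-330, each against DMSO. It had 24.9, 23.1 and 19.7 CPM in KPT-330+CS, 25.5, 23.6 and 24.0 CPM in KPT-330, 23.8, 24.1 and 27.0 CPM in CS, and 34.7, 31.8 and 26.8 CPM in DMSO. The treated groups overlapped each other, and CS replicate 3 reached the lowest DMSO library. BCL2L1 fell by 0.46 ± 0.10 in KPT-330+CS (adjusted p = 0.00188) and by 0.35 ± 0.10 in KPT-330 (adjusted p = 0.0124), and stood at -0.32 ± 0.10 in CS (adjusted p = 0.0752), each against DMSO. With libraries scaled by their size alone, both calls were lost (-0.28, adjusted p = 0.0557, and -0.20, adjusted p = 0.172). That scaling moved the median log2 fold change of all genes to 0.23 for KPT-330+CS against DMSO and 0.20 for KPT-330 against DMSO, from 0.04 in both. With the GC correction BCL2L1 stood at -0.54, -0.57 and -0.34 in KPT-330+CS, KPT-330 and CS against DMSO, all called.

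**Figure D2:**
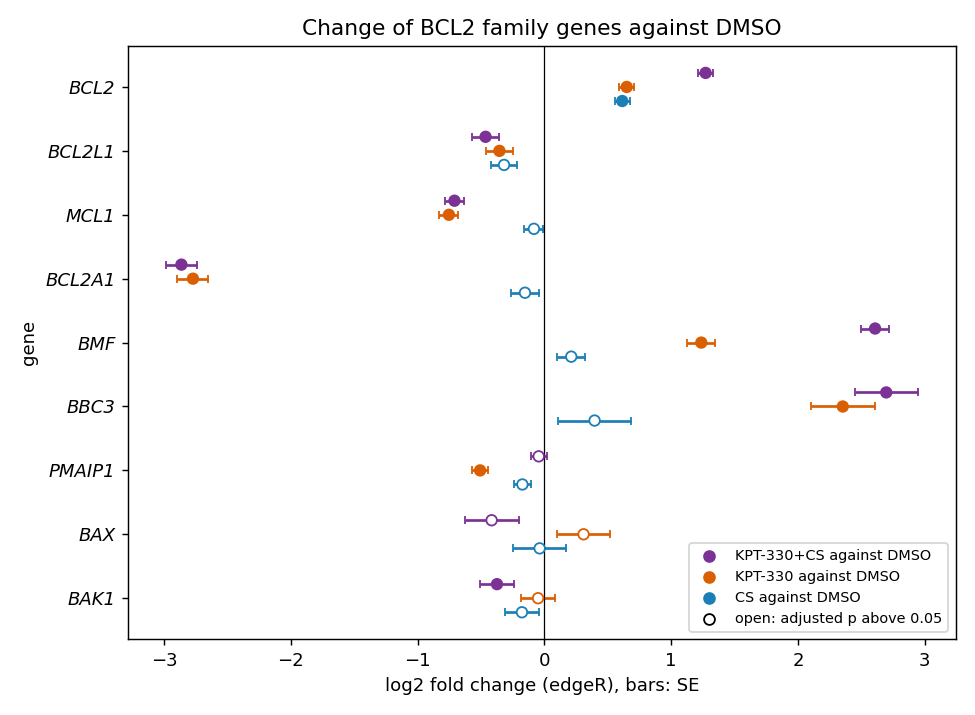
Change of 9 BCL2 family genes against DMSO, as edgeR log2 fold changes with SE bars, for KPT-330+CS, KPT-330 and CS from top to bottom within each gene; filled points have an adjusted p of 0.05 or less and open points do not. BCL2A1 lies near -2.8 with KPT-330 in either setting, BCL2 is called under all 3 treatments, and BMF separates KPT-330+CS (2.61) from KPT-330 (1.24).

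To compare levels between genes, CPM were divided by the gene length in the table. On that scale of CPM per kilobase, MCL1 was the most abundant member in every group, with 79.3 ± 4.99 in KPT-330+CS, 77.0 ± 0.47 in KPT-330, 122.5 ± 6.77 in CS and 129.7 ± 13.8 in DMSO (SD, n = 3 libraries here and below). Next came PMAIP1 in every group. The level of BCL2 was 33.2 ± 1.38 in KPT-330+CS, 21.6 ± 0.40 in KPT-330, 21.1 ± 0.78 in CS and 13.8 ± 1.05 in DMSO. In KPT-330+CS the order below BCL2 was BAK1 (8.43), BMF (7.79), BCL2L1 (6.81) and BAX (6.03), each overlapping its neighbour, then BCL2A1 (2.72) and BBC3 (1.06). In DMSO the order below PMAIP1 was BCL2A1 (19.8), BCL2 (13.8), BAK1 (10.9), BCL2L1 (9.39), BAX (8.03), BMF (1.27) and BBC3 (0.161), and neighbours from BCL2 to BAX overlapped. BCL2A1 thus stood behind only MCL1 and PMAIP1 in DMSO and next to last among the detected members in KPT-330+CS, while BMF stood near the bottom in DMSO and among BAK1 and BCL2L1 in KPT-330+CS.

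The makeup of the anti-apoptotic transcripts shifted from BCL2A1 and MCL1 towards BCL2. The 4 genes summed to 122.1 ± 5.41 CPM per kilobase in KPT-330+CS, 108.8 ± 0.73 in KPT-330, 168.9 ± 8.15 in CS and 172.7 ± 15.5 in DMSO. BCL2 made up 27.2% ± 0.82 of that sum in KPT-330+CS, 19.8% ± 0.26 in KPT-330, 12.5% ± 0.19 in CS and 7.98% ± 0.33 in DMSO. The share of BCL2A1 was 2.23% ± 0.12 in KPT-330+CS, 2.67% ± 0.38 in KPT-330, 10.6% ± 0.31 in CS and 11.5% ± 0.15 in DMSO. MCL1 held the largest share throughout, from 64.9% ± 1.38 in KPT-330+CS and 70.7% ± 0.32 in KPT-330 to 72.5% ± 0.54 in CS and 75.0% ± 1.26 in DMSO. These sums and shares are descriptions with no test, and they concern RNA, not protein.

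**Figure D3:**
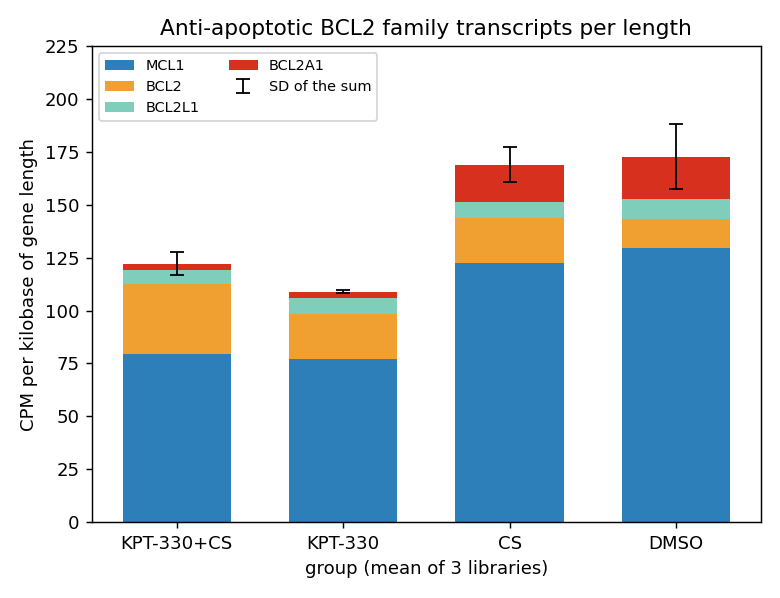
Summed level of the 4 anti-apoptotic genes in CPM per kilobase of gene length, as stacked means of 3 libraries for KPT-330+CS, KPT-330, CS and DMSO; the error bar is the SD of the sum. MCL1 is the largest block in each group, the BCL2 block is widest in KPT-330+CS (33.2 CPM per kilobase), and the BCL2A1 block is thin in the groups with KPT-330 (2.72 and 2.90) and thicker in CS and DMSO (17.9 and 19.8).

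Among the BH3-only members, BMF rose by more under both drugs together than the sum of its changes under the single drugs. BMF (ENSG00000104081, chromosome 15, 40087890 to 40108892) encodes a BH3-only protein that is held on the cytoskeleton in healthy cells and binds anti-apoptotic proteins when released. It had 43.1 (rounded from 43.15), 45.2 and 38.9 CPM in KPT-330+CS, 16.5, 15.8 and 16.8 CPM in KPT-330, 7.57, 7.503 and 9.03 CPM in CS, and 7.93, 5.97 and 6.91 CPM in DMSO. Every KPT-330+CS library lay above every KPT-330 library, which in turn lay above all CS and DMSO libraries, and CS overlapped DMSO. BMF rose by 2.61 ± 0.11 in KPT-330+CS (adjusted p = 7.75e-10) and by 1.24 ± 0.11 in KPT-330 (adjusted p = 1.23e-06) against DMSO, and stood at 0.21 ± 0.11 in CS (adjusted p = 0.279). The single changes summed to 1.45, and the interaction of 1.16 ± 0.15 passed the threshold (adjusted p = 0.000345). KPT-330+CS exceeded KPT-330 alone by 1.37 ± 0.10 (adjusted p = 9.73e-07). Of the 9 tested members, 2 had an interaction past the threshold, BMF and PMAIP1, both positive, where 14.7% of all tested genes did (8.04% positive and 6.62% negative). BAX had the largest negative interaction, -0.69 ± 0.30, which was not called (adjusted p = 0.144 by edgeR).

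PMAIP1 (ENSG00000141682, chromosome 18, 59899948 to 59904306) encodes NOXA, which binds MCL1 and BFL-1 in preference to BCL2. It had 112.5, 117 and 122 CPM in KPT-330+CS, 84.9, 85.5 and 84.9 CPM in KPT-330, 113, 106 and 102 CPM in CS, and 110.5, 120.9 and 131 CPM in DMSO. The KPT-330 libraries lay below all others, and the other groups overlapped. PMAIP1 fell by 0.51 ± 0.06 in KPT-330 (adjusted p = 3.23e-05), while the values for KPT-330+CS (-0.04 ± 0.06, adjusted p = 0.585) and CS (-0.17 ± 0.06, adjusted p = 0.119) against DMSO were not called. KPT-330+CS was higher than KPT-330 alone by 0.46 ± 0.06 (adjusted p = 0.000126), and the interaction was 0.64 ± 0.09 (adjusted p = 0.000655). The single changes summed to -0.68, beside the -0.04 measured under both drugs.

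BBC3 (ENSG00000105327, chromosome 19, 47220822 to 47232766) encodes PUMA, a potent BH3-only killer protein. It had 4.29 (rounded from 4.285), 2.99 and 2.83 CPM in KPT-330+CS, 2.61, 2.55 (rounded from 2.555) and 2.80 CPM in KPT-330, 0.736, 0.434 and 0.859 CPM in CS, and 0.637, 0.489 and 0.412 CPM in DMSO. The libraries with KPT-330 lay above those without, KPT-330+CS lay just above KPT-330 in all 3 libraries, and CS overlapped DMSO. BBC3 rose by 2.70 ± 0.25 in KPT-330+CS (adjusted p = 9.19e-07) and by 2.35 ± 0.25 in KPT-330 (adjusted p = 6.83e-06) against DMSO, and the interaction was -0.05 ± 0.35 (adjusted p = 0.937). The gene rested on few reads, 17 to 31 per DMSO library and 112 to 213 per KPT-330+CS library, and the gap between KPT-330+CS and KPT-330 (0.34 ± 0.20) was not called (adjusted p = 0.202). With the GC correction that gap was 0.79 ± 0.15 and was called (adjusted p = 0.000322).

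**Figure D4:**
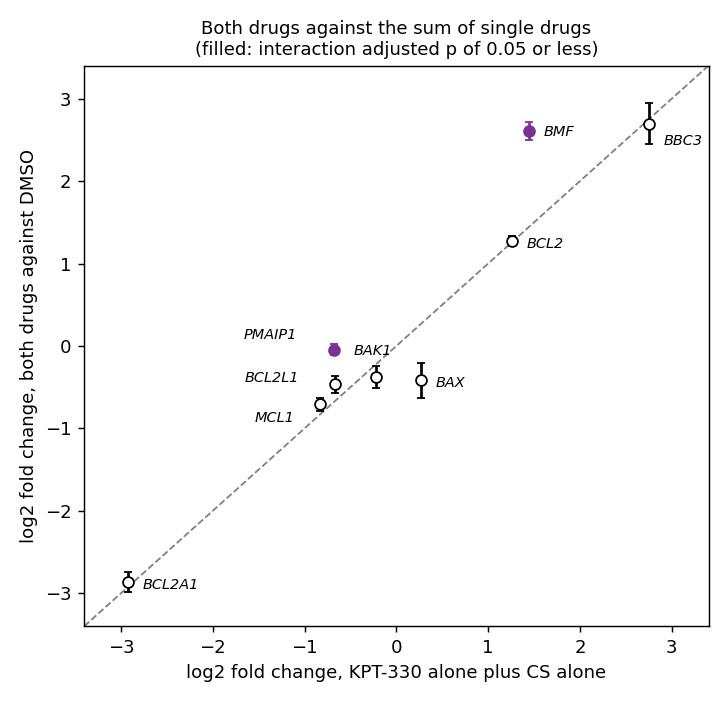
Log2 fold change under both drugs against DMSO (vertical axis, SE bars) plotted on the sum of the log2 fold changes under KPT-330 alone and CS alone (horizontal axis) for 9 BCL2 family genes; the dashed line marks equality and filled points have an interaction adjusted p of 0.05 or less. BMF and PMAIP1 lie above the line, by 1.16 and 0.64, and BCL2, BCL2A1 and BBC3 lie close to it. BAX lies below it as an open point, with an interaction of -0.69 ± 0.30 (adjusted p = 0.144 by edgeR).

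On the scale of CPM per kilobase, PMAIP1 supplied 85.6% (rounded from 85.55) of the BH3-only sum in KPT-330+CS, 90.8% in KPT-330, 96.6% in CS and 97.4% in DMSO. This sum covers only the listed BH3-only members (BCL2L11, BMF, BBC3 and PMAIP1). Outside it are other family genes, among them BID, HRK and BAD with 6.46, 1.66 and 1.26 CPM per kilobase in DMSO. BMF supplied 12.7% ± 1.15 in KPT-330+CS, 7.18% ± 0.22 in KPT-330, 2.98% ± 0.44 in CS and 2.31% ± 0.47 in DMSO. The BH3-only sum was 61.3 ± 1.56 in KPT-330+CS, 41.9 ± 0.07 in KPT-330, 49.7 ± 2.45 in CS and 55.5 ± 4.53 in DMSO, so that the KPT-330 libraries were lowest although BMF and BBC3 were higher in them than in DMSO.

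BCL2L11 (ENSG00000153094, chromosome 2, 111119378 to 111168447) encodes BIM, a main trigger of apoptosis in lymphocytes. All 12 libraries held 0 reads of it, so it was not tested. A count of 0 allows up to 3 reads, which is at most 0.0849 CPM in the shallowest library and 0.00513 CPM over all libraries together, for counting error only. The gene before it, ACOXL, ends 1156 bases away and had 40 to 135 reads per library, and BUB1, 441264 bases away, had 3845 to 12136. Of the genes within 500000 bases after it, MIR4435-1HG had 50 reads over all libraries and most others had 0. Homozygous loss of BCL2L11 has been described in mantle cell lymphoma lines, JEKO-1 among them, but no DNA was measured in these files and loss was not tested. No treatment brought reads of the gene above 0.

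Neither effector was called in KPT-330 or CS against DMSO. BAX varied widely within KPT-330+CS, CS and DMSO but not within KPT-330, and BAK1 varied widely only within CS and DMSO. BAX (ENSG00000087088, chromosome 19, 48954815 to 48961798), whose protein moves from the cytosol to mitochondria when activated, had 18.7, 15.8 and 12.3 CPM in KPT-330+CS, 25.2, 25.4 and 26.7 CPM in KPT-330, 16.0, 19.0 and 25.8 CPM in CS, and 27.3, 20.1 and 14.9 CPM in DMSO. All KPT-330+CS libraries lay below all KPT-330 libraries, and every other pair of groups overlapped. BAX stood at -0.42 ± 0.21 in KPT-330+CS (adjusted p = 0.113, but 0.0422 by DESeq2 and 0.049 without DMSO replicate 3), 0.31 ± 0.21 in KPT-330 (adjusted p = 0.24) and -0.04 ± 0.21 in CS (adjusted p = 0.949), each against DMSO. It was lower in KPT-330+CS than in KPT-330 by a log2 fold change of -0.73 ± 0.21 (rounded from -0.725; adjusted p = 0.0163), a call lost without KPT-330+CS replicate 3 (-0.58, adjusted p = 0.0708), without KPT-330 replicate 3 (-0.70, adjusted p = 0.0501) or with no filter on low counts (-0.74, adjusted p = 0.101).

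BAK1 (ENSG00000030110, chromosome 6, 33572547 to 33580293), whose protein sits in the mitochondrial membrane, had 19.5 (rounded from 19.45), 19.7 and 16.8 CPM in KPT-330+CS, 23.3, 22.0 and 24.7 CPM in KPT-330, 17.2, 22.2 and 24.6 CPM in CS, and 28.4, 23.7 (rounded from 23.75) and 20.2 CPM in DMSO. KPT-330+CS lay below KPT-330 and DMSO, and the other groups overlapped. The difference of KPT-330+CS against DMSO, -0.37 ± 0.14, was called (adjusted p = 0.0326). It was not called without KPT-330+CS replicate 3 (-0.31, adjusted p = 0.11), DMSO replicate 1 (-0.24, adjusted p = 0.14) or DMSO replicate 2 (-0.39, adjusted p = 0.0615), with library size alone (-0.19, adjusted p = 0.31), with a filter of 1 CPM in 3 libraries (-0.34, adjusted p = 0.0556) or with the compared groups alone (-0.34, adjusted p = 0.0792). KPT-330 (-0.05 ± 0.14) and CS (-0.18 ± 0.14) against DMSO were not called (adjusted p = 0.786 and 0.498).

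The levels of the effectors moved with the GC slope of the libraries. In KPT-330+CS, CS and DMSO, the groups whose slopes differed most, BAX (60.6% GC over its exons) and BCL2L1 (56.9%) were higher in libraries with a higher slope in 3 of 3 groups, and BAK1 (58.7%) and BBC3 (64.5%, rounded from 64.45) in 2. MCL1 (45.4%), BCL2A1 (40.4%) and PMAIP1 (43.4%) were lower with a higher slope in 3 of 3 groups. A group was counted only where all 3 libraries stood in the order of the slope. By that rule BCL2 (43.8%) was lower with a higher slope in only 1 group, and BMF (56.6%) was ordered in none, in either direction. In each of these groups BMF was still higher in the library with the highest slope than in that with the lowest. Its log2 CPM were 5.43 and 5.28 in KPT-330+CS, 3.18 and 2.92 in CS, and 2.99 and 2.79 in DMSO. The share of all genes ordered in these ways was not counted. After a correction for GC over all libraries the pooled SD within groups, in log2 units, was 0.107 in place of 0.320 for BAX, 0.0744 in place of 0.196 for BAK1, 0.0507 in place of 0.140 for BCL2L1 and 0.0191 in place of 0.0975 for MCL1. For PMAIP1 that SD was 0.0321 in place of 0.0789, and for BCL2A1 0.104 in place of 0.152. It changed less for BMF (0.108 in place of 0.141), BBC3 (0.279 in place of 0.345) and BCL2 (0.0597 in place of 0.0708). With that correction BAX fell in KPT-330+CS against DMSO (-0.52 ± 0.08, adjusted p = 9.31e-06) and against KPT-330 (-0.44 ± 0.08, adjusted p = 0.000113), and stood at -0.09 ± 0.08 in KPT-330 against DMSO (adjusted p = 0.346). BAK1 then fell in KPT-330 against DMSO too (-0.36 ± 0.06, adjusted p = 7.34e-05). In CS against DMSO, BCL2L1 (-0.34 ± 0.05, adjusted p = 0.000126), PMAIP1 (-0.14 ± 0.03, adjusted p = 0.00382) and BAK1 (-0.21 ± 0.06, adjusted p = 0.0236) were then lower, besides the rise of BCL2 (0.64 ± 0.04). In CS against KPT-330, BCL2 was then lower (-0.21 ± 0.04, adjusted p = 0.00031). PMAIP1 fell by a smaller 0.30 ± 0.03 in KPT-330 against DMSO (adjusted p = 4.26e-07), and BCL2L1 by a larger 0.57 ± 0.05 (adjusted p = 3.7e-08). The interaction stayed past the threshold for BMF (1.32 ± 0.11, adjusted p = 4.78e-08) and PMAIP1 (0.47 ± 0.05, adjusted p = 5.05e-07), and BCL2L1 (0.37 ± 0.08, adjusted p = 0.00115) and BAX (-0.37 ± 0.11, adjusted p = 0.0175) were added. The slopes also differ between groups, and their part in the results was not tested further.

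**Figure D5:**
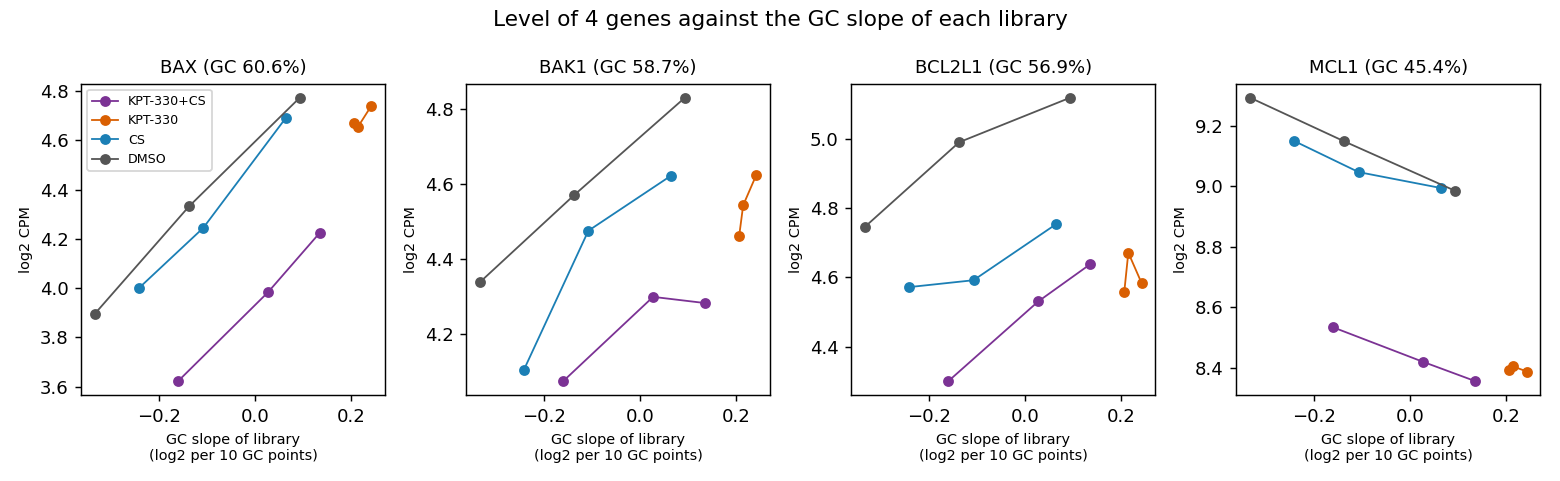
Level of BAX, BAK1, BCL2L1 and MCL1 in log2 CPM (vertical axes, cut to the range of the data) against the GC slope of each library in log2 units per 10 GC points; each point is a library and lines join the 3 libraries of KPT-330+CS, KPT-330, CS and DMSO. BAX and BCL2L1 go up and MCL1 goes down with the slope within KPT-330+CS, CS and DMSO, while the KPT-330 libraries sit together between 0.206 and 0.242.

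The promoters of the 3 members with the widest range of group means are shown so that the sequence before each start can be set beside its change: BCL2A1 (a range of 2.85 log2 units), BBC3 (2.62) and BMF (2.61). Each is the stretch of 250 bases before 1 annotated RefSeq start in GRCh38.p14, read 5′ to 3′ on the minus strand of the chromosome, with matches to the searched motifs in capitals, and RefSeq sequence was found for 9 of the 10 members.
BCL2A1, chr15:79971197-79971446, minus strand: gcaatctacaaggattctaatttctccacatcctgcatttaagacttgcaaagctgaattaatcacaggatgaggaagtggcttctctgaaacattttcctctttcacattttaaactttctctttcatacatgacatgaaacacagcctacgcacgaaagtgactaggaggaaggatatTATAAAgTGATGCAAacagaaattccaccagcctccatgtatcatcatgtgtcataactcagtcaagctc
BMF, chr15:40108880-40109129, minus strand: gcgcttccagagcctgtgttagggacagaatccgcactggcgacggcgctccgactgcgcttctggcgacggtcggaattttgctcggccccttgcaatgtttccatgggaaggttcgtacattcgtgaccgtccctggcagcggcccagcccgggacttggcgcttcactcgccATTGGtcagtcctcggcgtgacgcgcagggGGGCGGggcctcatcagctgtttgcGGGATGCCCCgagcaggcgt
BBC3, chr19:47232668-47232917, minus strand: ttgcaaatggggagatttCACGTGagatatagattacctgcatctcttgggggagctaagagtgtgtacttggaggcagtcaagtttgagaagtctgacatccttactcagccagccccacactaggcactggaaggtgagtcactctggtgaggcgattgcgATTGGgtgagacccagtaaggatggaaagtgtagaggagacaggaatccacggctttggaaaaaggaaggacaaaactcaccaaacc

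The motifs were searched on both strands, and their shares are of 35116 promoters of the same length. In BCL2A1 the capitals mark a TATA box (TATAAA, positions -70 to -65 counted back from the start, held by 10.7% of promoters) and, 1 base further on, a match to TGATGNAA, the composite site of ATF4 and C/EBP factors (-63 to -56, 3.14%). In BMF they mark a CCAAT box (-75 to -71, 32.0%, on the opposite strand), a GC box (GGGCGG, -45 to -40, 42.6%) and a match to the NF-kappaB consensus (-20 to -11, 5.21%, on the opposite strand). In BBC3 they mark an E-box (CACGTG, -232 to -227, 6.34%) and a CCAAT box (-87 to -83, 32.0%, on the opposite strand). The motifs searched also included GTAAACA (2.98% of promoters), TGACGTCA (1.65%) and the p53 half-site consensus (5.57%). None of these matched in the stretches shown. BCL2A1 had 2 CpG dinucleotides and 38.8% GC, BBC3 4 and 49.2%, and BMF 26 and 65.2%, beside a median promoter of 11 CpG and 58.0% GC. The stretches shown for BMF and BBC3, genes that both rose under KPT-330, thus differ in base composition. Any other starts of these genes were not searched. A match is a run of letters, not a shown binding site, and no binding was measured.

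Other genes of the apoptosis pathway were grouped in 6 lists of 63 genes, 60 of them tested. For KPT-330+CS against DMSO 20 were higher and 21 lower (median log2 fold change 0.06, against 0.04 over all tested genes), and 55.5% of all tested genes were called. For KPT-330 against DMSO 14 were higher and 24 lower (median -0.02, against 0.04), with 48.5% of genes called. For CS against DMSO 5 were higher and 8 lower (median 0.00, rounded from -0.004, against -0.01), with 8.88% called. For KPT-330+CS against KPT-330 19 were higher and 10 lower (median 0.06, against 0.00), with 37.6% called. The shares of all tested genes called higher and lower were 29.3% and 26.2% for KPT-330+CS against DMSO. They were 24.7% and 23.8% for KPT-330 against DMSO, and 3.76% and 5.13% for CS against DMSO. For KPT-330+CS against KPT-330 they were 19.7% and 17.9%. The lists hold few genes and were not tested as sets, so little can be read from the counts per list.

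In KPT-330+CS against DMSO, of the 9 tested other BCL2 family genes 4 were higher and 1 was lower. The anti-apoptotic gene BCL2L2 rose by 1.65 ± 0.09 on the log2 scale, and the BH3-only genes BIK and HRK by 1.60 ± 0.23 and 1.22 ± 0.08. BCL2L2 shares its locus with the BCL2L2-PABPN1 readthrough gene and overlaps PPP1R3E, so its reads cannot be told apart from theirs. Of 16 caspase and mitochondrial genes 4 were higher and 7 lower: CYCS, which encodes cytochrome c, had 419.8 CPM in KPT-330+CS and 1106 CPM in DMSO (-1.40 ± 0.08), the flavoprotein gene AIFM1 fell by 0.78 ± 0.06 and the channel gene VDAC2 by 0.77 ± 0.07. Of 6 inhibitor of apoptosis genes 4 were lower, led by BIRC5, which encodes survivin (28.1 CPM in KPT-330+CS and 106 CPM in DMSO, -1.92 ± 0.11), then BIRC3 (-0.71 ± 0.09) and BIRC6 (-0.38 ± 0.07). Of 10 death receptor genes 5 were higher and 1 lower, with CASP10 at 0.87 ± 0.13, the TRAIL receptor gene TNFRSF10B at 0.63 ± 0.06 and the adaptor gene TRADD at 0.43 ± 0.17. The call of TRADD was lost in 11 of 21 alternatives, among them without KPT-330+CS replicate 1 (0.29, adjusted p = 0.201), without DMSO replicate 3 (0.33, adjusted p = 0.129) and with the GC correction (0.26, adjusted p = 0.0772). Calls of TNFRSF10A, TNFRSF1A and FADD, named after their values were seen, were also lost in some alternatives. With the compared groups alone they stood at 0.24 (adjusted p = 0.0676 by edgeR), 0.43 (0.0522) and -0.18 (0.177). Of the 41 pathway genes called in this comparison, 33 kept their call under every alternative.

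Of 13 genes for transcription factors known to act on BCL2 family genes, 6 were higher and 4 lower in KPT-330+CS against DMSO. DDIT3, which encodes the stress factor CHOP, had 98.8 CPM in KPT-330+CS and 33.7 CPM in DMSO (1.55 ± 0.06), and it overlaps MARS1 and MBD6. ATF3, a stress-induced factor, rose by 1.46 ± 0.21. Of 6 genes for the turnover of MCL1 protein 4 were lower and 1 higher, with the ubiquitin ligase parts FBXW7 at -0.51 ± 0.10, SKP1 at -0.50 ± 0.07 and CUL1 at -0.39 ± 0.05. Over the alternatives the smallest values were -0.19 for BIRC6, -0.20 for CUL1, -0.33 for FBXW7 and -0.31 for SKP1, all still called.

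In KPT-330 against DMSO, of the 9 tested other BCL2 family genes 4 were higher and 1 lower, with BIK (1.99 ± 0.22), BCL2L2 (1.20 ± 0.09) and the BH3-only gene BAD (1.11 ± 0.30, not called with no filter, adjusted p = 0.0554, and as low as 0.49 in another alternative) at the top and BNIP3 not called (0.14 ± 0.08). Of the caspase and mitochondrial genes 3 were higher and 8 lower, among them CYCS (471 CPM in KPT-330 and 1106 CPM in DMSO, -1.23 ± 0.08), VDAC3 (-0.59 ± 0.08) and AIFM1 (-0.54 ± 0.06). Inhibitor of apoptosis genes were lower for 4 of 6. BIRC3, a ubiquitin ligase of the NF-kappaB pathway, fell to 80.4 CPM in KPT-330, against 178 CPM in DMSO (-1.15 ± 0.09), BIRC5 fell by 0.73 ± 0.11 and XIAP by 0.45 ± 0.08. Of 10 death receptor genes 3 were lower and 1 higher, with the initiator caspase gene CASP8 at -0.56 ± 0.08, its inhibitor CFLAR at -0.30 ± 0.07 and TNFRSF10B at 0.28 ± 0.06. Of 13 transcription factor genes 6 were higher and 3 lower: TP73 rose by 1.85 ± 0.23 and DDIT3 by 1.49 ± 0.06. MCL1 turnover genes were lower for 5 of 6, led by SKP1 (-0.58 ± 0.07) and FBXW7 (-0.56 ± 0.10), while CUL1 (-0.28 ± 0.05) lost its call with the GC correction (-0.09, adjusted p = 0.0596). The other two lower genes, named after their values were seen, each lost their call in 9 of 21 alternatives and changed sign in some: USP9X (-0.23) was 0.0225 with the GC correction, and HUWE1 (-0.14) was 0.0163 with library size alone and -0.0802 with the GC correction (adjusted p = 0.0526). Over the alternatives the smallest values were -0.35 for CASP8, -0.14 for CFLAR, -0.19 for XIAP, -0.38 for VDAC3, -0.34 for SKP1 and -0.33 for FBXW7, and the largest for TNFRSF10B was 0.44, all still called. Of the 38 pathway genes called in this comparison, 27 kept their call under every alternative, and 3 changed sign in some alternative.

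In CS against DMSO, 13 of the 60 pathway genes were called. HRK rose by 0.62 ± 0.08 and BCL2L2 by 0.44 ± 0.09, and BNIP3 fell by 0.32 ± 0.08. VDAC2 fell by 0.40 ± 0.07, VDAC1 by 0.33 ± 0.05 and CYCS by 0.32 ± 0.08, and BIRC3 stood at 0.26 ± 0.09 (adjusted p = 0.0918). ATF3 (0.86 ± 0.22), DDIT3 (0.39 ± 0.06) and ATF4 (0.31 ± 0.05), genes of the integrated stress response, were the 3 of 13 transcription factor genes called, all higher. Of the 13 pathway genes called in this comparison, 3 kept their call under every alternative.

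Against KPT-330 alone, KPT-330+CS was higher for 6 of 10 death receptor genes and lower for 1. Of all tested genes, 19.7% were higher and 17.9% lower. Among the death receptor genes, CASP10 stood at 1.05 ± 0.13, CASP8 at 0.39 ± 0.08 and CFLAR at 0.38 ± 0.07. BIRC5 was lower by 1.19 ± 0.11 (28.1 CPM in KPT-330+CS and 63.9 CPM in KPT-330), and BIRC3 and BIRC2 were higher by 0.43 ± 0.09 and 0.38 ± 0.10. HRK was higher by 0.78 ± 0.08, and APAF1, whose protein binds cytochrome c to form the apoptosome, by 0.45 ± 0.09. TP73 fell by 1.56 ± 0.22 (1.95 CPM in KPT-330+CS and 5.73 CPM in KPT-330), E2F1 fell by 0.97 ± 0.13 and ATF3 rose by 1.497 ± 0.21. Over the alternatives the smallest values were 0.24 for BIRC2, 0.25 for BIRC3, 0.25 for CASP8 and -0.63 for E2F1, all still called. Of the 29 pathway genes called in this comparison, 22 kept their call under every alternative. TP73 overlaps WRAP73 and TP73-AS1, so its reads are uncertain. In bulk RNA such as this, fewer cells of a kind and less RNA per cell cannot be told apart.

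The genes most like the 3 members of widest range were found by Pearson's r of log2 CPM over the 12 libraries, which share the same groups, and are given as a description. BMP3 (r = 0.997), SLC25A20 (0.996) and CENPF (0.993) were most like BCL2A1. CENPF, a gene of mitosis, had 208 CPM in KPT-330+CS, 229.8 CPM in KPT-330, 559 CPM in CS and 544 CPM in DMSO. LYSMD1 (0.988), SFXN3 (0.987) and DDAH2 (0.984) were most like BBC3, and PHF21A (0.993) and MYC (0.988) were among those most like BMF. MYC, the growth regulator, had 490.3 CPM in KPT-330+CS, 334 CPM in KPT-330, 224 CPM in CS and 199.6 CPM in DMSO.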

How the data were processed

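Per the labels' protocols, RNA was extracted with a kit made for fixed tissue, and libraries were made with a TruSeq V2 kit, which selects poly(A) RNA and does not mark strand. Per the series' design text and the submitters' processing notes, reads were aligned to hg38 with STAR. The file deposited by the authors holds raw counts for genes of Ensembl release 78. The sources used here name no counting program, strand setting or tool version. Reads of overlapping genes therefore cannot be told apart. Antisense and overlapping genes of the members themselves held few reads. Further pathway genes than those marked in the text overlap a gene with more reads. Among them are BAD (1896 reads, beside 3573 of GPR137), TNFRSF10B (27031, beside 46714 of RHOBTB2) and CASP6 (15711, beside 40133 of MCUB). The study used edgeR and asked for an adjusted p within 0.05 together with a log2 change larger than 2 in size.

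The deposited counts of 12 libraries in 4 groups of 3 entered a single model in edgeR 4.0.16 (R version 4.3.3) that held only the group, which leaves 8 residual degrees of freedom. Low genes were removed by filterByExpr, libraries were scaled by TMM, and differences were tested two-sided by the quasi-likelihood F-test with robust estimation. Adjusted p-values are Benjamini-Hochberg over 19460 genes in each of 7 comparisons. The SE is the absolute log2 fold change over the square root of F. Library sizes for CPM were scaled by TMM, and a prior count of 2 was used for log2 CPM. GC content came from GENCODE 44, which held 56105 of the 64253 identifiers. The members and gene lists were chosen with earlier results of these data known. The text names all 10 members, XPO1, and per list and comparison at most 3 called genes with the largest changes and at most 1 that was not called; some genes that this rule names are not reported here. The genes most like a member had to average at least 5 CPM in their highest group.

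The alternatives were no filter, a filter of 1 CPM in 3 libraries, DESeq2 size factors, library size alone, DESeq2 1.42.0, the replicate number as a block, a GC correction (lowess, span 0.3) with and without that block, the compared groups alone, and each library left out. The steps were tested on simulated data. Figures were drawn with matplotlib 3.10.9.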

Additional observations from a re-analysis of the deposited data

Results flagged for a closer look

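For the genes named here, the effect of CS differed between cells with and without KPT-330, by the interaction term of the edgeR fit at an adjusted p of 0.05 or less (14.7% of all tested genes did so). A positive value means that the change of KPT-330+CS against KPT-330 exceeded that of CS against DMSO on the log2 scale. Among the members these were BMF (1.16) and PMAIP1 (0.64). In BMF, CS with KPT-330 gave a log2 fold change of 1.37 and CS without it 0.21; in PMAIP1 the values were 0.46 and -0.17.

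Among the other apoptosis genes, the death receptor genes CASP10 (1.08), TNFRSF1A (0.89), CASP8 (0.60) and TNFRSF10B (0.37) had positive interactions, as had APAF1 (0.66) and CASP6 (0.36) of the caspase list. BNIP3 (0.51), STAT3 (0.34) and SKP1 (0.33) were also positive. TP73 (-1.96), E2F1 (-1.07), BIRC5 (-1.06) and DDIT3 (-0.32) were negative. With the GC correction the value of CASP6 was 0.22 (adjusted p = 0.116), and those of DDIT3 and SKP1 lost their call under DESeq2 (adjusted p = 0.0555 and 0.082).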

How the results depend on the processing

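Of 63 differences (9 tested members in 7 comparisons), 31 were called, and 27 of these kept their call and direction under every alternative run; none of the 31 changed direction. The other 4 are BCL2L1 in KPT-330+CS and in KPT-330 against DMSO, BAK1 in KPT-330+CS against DMSO and BAX in KPT-330+CS against KPT-330, and their values stand in the report. The causes were not tested.

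The number of members called moved by more than 1.5 times in 4 comparisons. In the other 3 it lay between 6 and 8 over the alternatives for KPT-330+CS and for KPT-330 against DMSO, where 7 were called in each, and between 3 and 6 for KPT-330+CS against KPT-330, where 4 were called. For CS against DMSO it was 1 and became 4 with the GC correction, with or without the block, and 1 to 2 with a library left out (BCL2L1 joined without DMSO replicate 3 and PMAIP1 without DMSO replicate 1). For KPT-330+CS against CS it was 5 and became 9 with the GC correction, with or without the block. For CS against KPT-330 it was 5 and became 8 with the GC correction, and for the interaction it was 2 and became 4, with or without the block. Of the apoptosis pathway genes, 13 were called for CS against DMSO, 24 with the GC correction, 23 with the GC correction and the replicate block, 3 with the compared groups alone, and 6 to 19 with a library left out; for the interaction 14 were called, and 11 to 22 with a library left out. Over all genes CS against DMSO called 1729, against 4080 with the GC correction, 3506 with that and the block, 1036 with the block alone, 249 with the compared groups alone and 760 to 2580 with a library left out (760 without CS replicate 2). The interaction called 2853 genes, 4697 with the GC correction, and 1713 to 4711 with a library left out (4711 without DMSO replicate 1).

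Differences that were not called changed sign as follows. With the GC correction, without and with the block, BAX in KPT-330 against DMSO was -0.0885 and -0.0859, PMAIP1 in KPT-330+CS against DMSO 0.0266 and 0.0266, BCL2L1 and MCL1 in KPT-330+CS against KPT-330 0.0344 and 0.0342, and -0.0922 (adjusted p = 0.00703) and -0.0922, BAX and BAK1 in CS against KPT-330 0.02 and 0.0203, and 0.16 (adjusted p = 0.0457) and 0.15. The interactions were then -0.15 and -0.15 for BCL2, -0.0237 and -0.0237 for MCL1, -0.13 and -0.12 for BCL2A1, 0.45 and 0.44 for BBC3, and 0.11 and 0.11 for BAK1. With library size alone BAK1 in KPT-330 against DMSO was 0.11, BAX in CS against DMSO 0.0206, PMAIP1 in KPT-330+CS against DMSO 0.14 (adjusted p = 0.0309), BCL2L1 in CS against KPT-330 -0.05995 and the interaction of BCL2 -0.0314; with no filter that interaction was -0.0171. That scaling called 7606 genes higher and 3363 lower in KPT-330+CS against DMSO, where the scaling used here called 5711 and 5095, and 6651 and 2905 in KPT-330 against DMSO, where it called 4815 and 4631.

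With each library left out, ranges that crossed 0 were -0.15 to 0.0848 for BAK1 in KPT-330 against DMSO, -0.16 to 0.0195 for MCL1 and -0.23 to 0.21 for BAX in CS against DMSO, -0.11 to 0.0405 for PMAIP1 in KPT-330+CS against DMSO, -0.00719 to 0.0811 for MCL1 in KPT-330+CS against KPT-330, -0.0603 to 0.0118 for BCL2, -0.004795 to 0.0697 for BCL2L1 and -0.23 to 0.00585 for BAK1 in CS against KPT-330, and -0.0348 to 0.0688 for BCL2, -0.0472 to 0.15 for BCL2A1 and -0.29 to 0.17 for BBC3 in the interaction.

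No pairing of the libraries by replicate number was seen: correlations of same-numbered deviations lay between -0.384 and 0.401, and 0 of 12 libraries correlated best with their own number. The GC slopes differ within groups and were not removed first, so a weaker pairing could be hidden. With the replicate block, BAK1 in KPT-330+CS against DMSO was -0.37 (adjusted p = 0.0607). The interaction has no value with the compared groups alone. Depth limits BBC3, with as few as 17 reads in a library. BCL2L11 had 0 reads in all 12 libraries, so no change of it could be measured.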
